A study of Mus musculus with 21 samples.

Results

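The matricellular proteins described here are thrombospondins 1, 2 and 4 (Thbs1, Thbs2, Thbs4), tenascin C (Tnc), periostin (Postn), cartilage intermediate layer protein (Cilp), osteopontin (Spp1), osteonectin (Sparc) and fibronectin (Fn1). These 9 genes were chosen by name among the 32285 genes of the count table, with earlier results of these data known, and all 9 were in it. Their UMIs (unique molecular identifiers, 1 per captured transcript) were followed in fibroblasts, endothelium, macrophages and melanoma cells of subcutaneous primary tumors, lung metastases and unchallenged lungs.

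Matricellular proteins are secreted into the extracellular matrix and act mainly on how cells attach, move and respond to growth factors, by binding integrins, syndecans, CD36, CD47 and other receptors, rather than by bearing load. Many of them are low in resting adult tissue and are made during development, wound repair and in tumor stroma. Fibronectin is a structural glycoprotein of the matrix as well, and is grouped here because the other members bind it and share its integrin receptors.

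MT-ret melanoma fragments were grown under the skin of mT/mG mice, whose own cells carry tdTomato because no Cre recombinase was used, and the primary tumors were removed before lung metastases were collected. Host cells of the tumor microenvironment (TME) were sorted as living tdTomato+ cells, in some libraries with removal of CD45+ leukocytes, and unlabeled melanoma (MM) cells were sorted apart. Unchallenged lungs served as the control without tumor. The samples hold no normal skin, so differences between primary tumor and unchallenged lung cannot be told apart from differences between skin and lung. The labels give no genotype or age per sample, name the tissue as lung for the primary tumors too, and do not say which libraries were depleted of CD45+ cells, so the number of macrophages per library cannot be told apart from the gate.

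The 9 genes lie on separate mouse chromosomes of GRCm38 and are annotated as protein coding in GENCODE vM21. Thbs1 is at chr2:118111876-118127133 on the plus strand, Thbs2 at chr17:14665500-14694235 on the minus strand and Thbs4 at chr13:92751590-92794818 on the minus strand. Tnc is at chr4:63959785-64047015 on the minus strand, Postn at chr3:54361109-54391037 on the plus strand and Cilp at chr9:65265180-65280605 on the plus strand. Spp1 is at chr5:104435118-104441050 on the plus strand, Sparc at chr11:55394500-55423183 on the minus strand and Fn1 at chr1:71585520-71653200 on the minus strand.

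Tnc and Postn were the pair of members most alike in level over libraries and cell types (r = 0.88), followed by Thbs4 and Tnc (r = 0.82), so the 250 bases before the transcription start of these genes are shown. Other pairs were close behind, with Thbs2 at 0.78 to both Postn and Sparc, and Cilp at 0.77 to Thbs4. They are RefSeq sequences on GRCm38.p6, each on the strand of its gene, 5′ to 3′, at the RefSeq start nearest to the gene's annotated 5′ end. They lie at chr13:92794819-92795068 for Thbs4, chr4:64047016-64047265 for Tnc and chr3:54360857-54361106 for Postn. Capitals mark matches to the 3 motifs searched on both strands, the AP-1 motif TGANTCA, the TEAD motif GGAATG and the TATA motif TATAAA.
Thbs4: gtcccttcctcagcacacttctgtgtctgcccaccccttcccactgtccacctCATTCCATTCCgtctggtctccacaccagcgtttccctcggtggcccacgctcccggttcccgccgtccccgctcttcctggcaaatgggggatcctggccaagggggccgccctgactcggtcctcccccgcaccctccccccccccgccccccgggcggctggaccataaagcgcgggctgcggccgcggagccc
Tnc: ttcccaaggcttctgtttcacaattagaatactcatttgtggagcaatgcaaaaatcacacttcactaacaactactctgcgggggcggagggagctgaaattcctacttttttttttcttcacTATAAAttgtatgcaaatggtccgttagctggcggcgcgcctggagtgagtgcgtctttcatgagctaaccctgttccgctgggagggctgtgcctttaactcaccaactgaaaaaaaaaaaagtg
Postn: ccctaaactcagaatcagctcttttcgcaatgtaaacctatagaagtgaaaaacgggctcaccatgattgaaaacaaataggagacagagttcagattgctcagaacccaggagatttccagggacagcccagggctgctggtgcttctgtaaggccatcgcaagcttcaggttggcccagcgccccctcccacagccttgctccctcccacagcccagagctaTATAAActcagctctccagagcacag
The Thbs4 promoter held 2 overlapping matches to the TEAD letters on the opposite strand, from -197 to -192 and from -192 to -187 counted from the transcription start. The Tnc and Postn promoters each held the TATA letters, at -126 to -121 and at -26 to -21. None of these 3 windows held the AP-1 letters. Of 32851 mouse promoter windows of this length, 12.6% held the TEAD letters, 12.4% the TATA letters and 6.75% the AP-1 letters, so matches like these are common, and no match says only that the letters are not in this window. The promoter table had entries for 7 members, and Fn1 and Thbs1 had none.

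The table held 110283 cells under 24 library names. Of these names 5 repeated the cells and counts of another, and they were counted once, which left 100359 cells. With the names of replicates 1 to 3 summed per tissue there were 16 libraries: 4 each of primary tumor TME, lung metastasis TME and unchallenged lung, and 4 of sorted melanoma cells. Total UMIs ranged from 1777036 to 60339415 per library. Primary tumor replicate 6, unchallenged lung replicate 6 and the melanoma library of primary tumor replicate 4 were shallower than the rest, with medians of 1203, 1605 and 1654 UMIs per cell against 3050 to 5356 in the other libraries. At most 227 barcodes were shared by any pair of kept libraries, and 1093 kept barcodes occurred in more than 1 library. Replicates 1 to 3 of primary tumor and of metastasis were each deposited as 1 sample, named 1-3. The library names list mice 1, 2 and 3 apart for primary tumor and mice 2 and 3 for metastasis. Their cells were summed here as 1 library per tissue. By their library names, lung metastasis and primary tumor replicates with the number 5 came from the same mouse, as did those with the number 6, and the mice of the libraries 1-3 overlapped, whereas those with the number 4 came from different mice. The counts of the replicates 5 and 6 were also deposited under the names of other mice, so which mouse each came from is uncertain. Those second names again gave the same mouse to metastasis and primary tumor, but the counts of metastasis replicate 6 also stood under a sorted melanoma name that gives replicate 6 another mouse.

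Cell classes were named from standard markers after clustering without the 9 members among the variable genes, and comprised 5368 fibroblasts, 6878 endothelial cells, 10384 macrophages and 50208 melanoma cells. The host cell library of metastasis replicate 5 held 2078 melanoma cells among its 5166 cells. It gave 442 of 515 fibroblasts and 1179 of 1617 endothelial cells of the metastasis host cell libraries. Of 11 fibroblast markers all were raised in the main lung cluster (led by Inmt, Clec3b and Ogn), which held most unchallenged lung fibroblasts. Fibroblasts of primary tumors fell mostly in the clusters led by Ccl11, Lum and Apod and by Meg3, Col1a1 and Rian, and those of lung metastases mostly in the latter. Of the 11 markers, 6 were raised in the cluster led by Ccl11, which held 1488 primary tumor cells, and 10 in that led by Meg3. Postn and Spp1 are among the 10 leading genes of the former, and Tnc among those of the latter. The fibroblast class carried RNA of other cells. Its summed melanoma markers were at 539.7 to 5197 CPM (counts-per-million of the UMIs of a class in a library) in primary tumors and 1091 to 4664 CPM in lung metastases, against 19.8 to 31.7 CPM in unchallenged lungs, and its summed macrophage markers were highest in unchallenged lung, at up to 8868 CPM. Of 5329 fibroblasts clustered again, 2831 lay in 4 of 13 subclusters led by genes of melanoma, macrophage, ciliated or alveolar type II cells. Of these, 1426 were from primary tumor replicate 6 and 1360 from unchallenged lung replicate 6. Fewer cells of a type and less RNA per cell cannot be told apart in summed counts of a class that mixes subtypes.

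**Figure D1:**
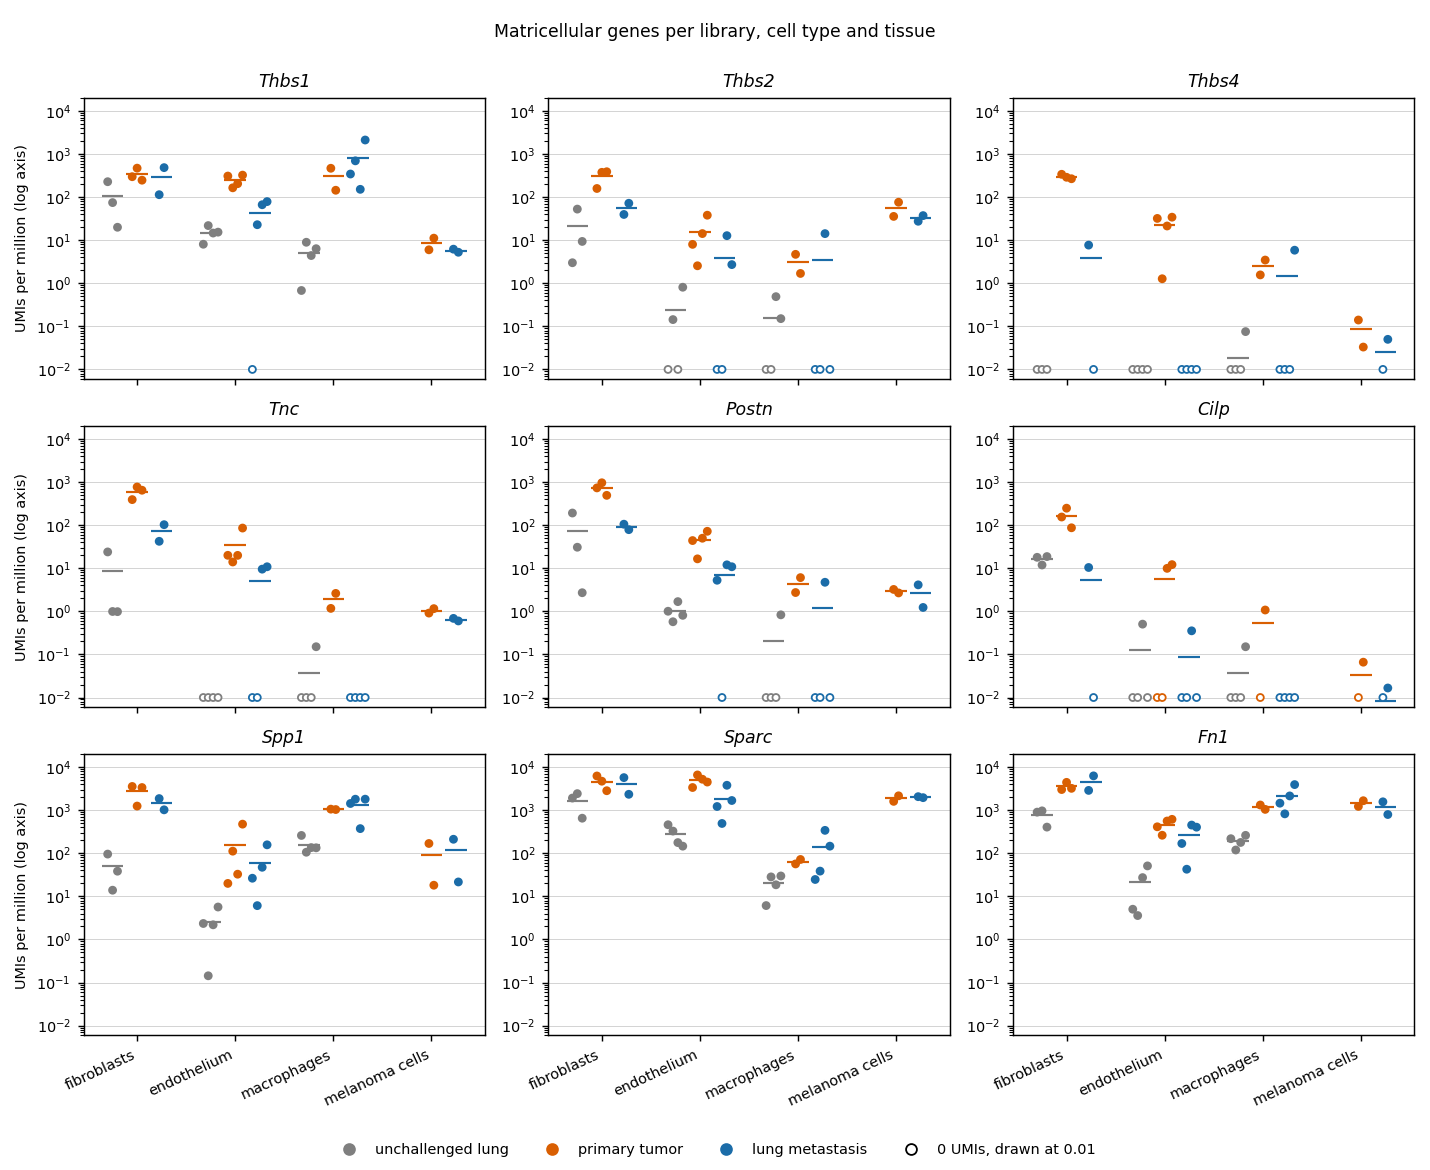
Level of each of the 9 genes, as CPM of all UMIs of a cell class in a library on a log axis, in fibroblasts, endothelium, macrophages and sorted melanoma cells. Each point is 1 library, colored by tissue, bars are means, and open points at the bottom are libraries with 0 UMIs. Thbs4 in fibroblasts lay at 266 to 338 CPM in the 3 primary tumors and at 0 CPM in the 3 unchallenged lungs.

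In fibroblasts, the question was which members differed between primary tumor, lung metastasis and unchallenged lung. Levels are CPM of the UMIs summed over the fibroblasts of a library with at least 20 of them, in 3 primary tumors (replicates 4, 5 and 6), 2 lung metastases (5 and 6) and 3 unchallenged lungs (4, 5 and 6). Differences are log2 fold changes ± SE from edgeR's quasi-likelihood test, with Benjamini-Hochberg adjusted p over the 11118 genes tested. All 9 members passed the filter on low counts. Between primary tumor and unchallenged lung, 6 of the 9 members were higher in the tumor and 0 lower, against 5.39% of all genes called higher and 6.92% called lower. With DESeq2 the count was 8, for which the share of all genes called is not given. The median log2 fold change of the members was 3.57, against -0.02 over all genes tested. Thbs4 had 0 UMIs in unchallenged lung and passed the filter through primary tumor, so it had to differ from lung. The count and median thus describe these 9 members and are not read against the values of all genes. Between lung metastasis and unchallenged lung 1 member was called, higher in metastasis, against 0.908% of genes higher and 0.153% lower, while 4 members had an unadjusted p below 0.05 and DESeq2 called 3. Between lung metastasis and primary tumor 2 members were called, both lower in metastasis, against 0.908% of genes higher and 0.207% lower, and DESeq2 called 3. The shares of all genes are not given for the DESeq2 and unadjusted counts, which are not read as results about the members. The members' median log2 fold change was 1.55 for metastasis against lung and -2.59 for metastasis against primary tumor. These comparisons share libraries and so are not independent.

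Thrombospondins are secreted glycoproteins. Thbs1 and Thbs2 form trimers that bind CD36 and CD47 and limit angiogenesis, and Thbs4 forms pentamers found in tendon, muscle and healing tissue. Thbs4 was at 338, 288 and 266 CPM in the primary tumors of replicates 4, 5 and 6, at 7.68 CPM and 0 CPM in the metastases of replicates 5 and 6, and at 0 CPM in all 3 unchallenged lungs. The primary tumor libraries stood apart from all others, with no overlap. Thbs4 had to differ from lung in primary tumor, so its call there is a description. Against the level that 3 UMIs over the group allow in unchallenged lung, Thbs4 was at least 536-fold higher in primary tumor. Without unchallenged lung replicate 6, which held most of the lung UMIs, that limit was at least 133-fold. In lung metastasis its fall from primary tumor was -5.69 ± 0.67 on the log2 scale (edgeR adjusted p = 0.016), whereas lung metastasis did not pass the test against unchallenged lung (edgeR adjusted p = 0.063). The 14 UMIs of the metastases were all in replicate 5.

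Thbs2 was at 158, 375 and 387 CPM in primary tumors, 39.5 and 71.8 CPM in metastases and 2.99, 52.6 and 9.35 CPM in unchallenged lungs (replicates 4, 5 and 6 in order, metastases 5 and 6). Every primary tumor was above every other library, and metastases overlapped with lungs. The rise from lung to primary tumor was 3.80 ± 0.80 (edgeR adjusted p = 0.016). It lost its call without primary tumor replicate 5 (edgeR adjusted p = 0.051) or replicate 6 (edgeR adjusted p = 0.057). Thbs1 was at 297, 469 and 247 CPM in primary tumors, 114 and 482 CPM in metastases and 227, 74.4 and 19.9 CPM in unchallenged lungs. Its log2 difference between primary tumor and lung, 1.85 ± 0.80, did not pass the test (edgeR adjusted p = 0.16), and the 2 metastases lay on either side of the lung library of replicate 4.

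Tnc encodes tenascin C, a hexameric glycoprotein of wounds and tumor stroma that binds syndecan 4 and integrins. It was at 392, 769 and 647 CPM in primary tumors, 42.2 and 103 CPM in metastases and 23.9, 0.992 and 0.984 CPM in unchallenged lungs. The 3 tissues did not overlap, and metastases lay between lung and primary tumor. The rise from lung to primary tumor was 7.22 ± 1.09 (edgeR adjusted p = 0.0047). Its size rests on 13 UMIs in lungs, 8 of them in replicate 4, and was 9.47 in the third sequencing run alone (edgeR adjusted p = 0.0029) and 6.12 without the shallow libraries (edgeR adjusted p = 0.0045). In contrast, neither metastasis against lung (4.02 ± 1.10, edgeR adjusted p = 0.11) nor metastasis against primary tumor (-3.19 ± 0.98, edgeR adjusted p = 0.20) passed. Postn, an integrin ligand that supports collagen crosslinking, was at 734, 964 and 493 CPM in primary tumors, 105 and 78.7 CPM in metastases and 192, 30.8 and 2.71 CPM in unchallenged lungs. Primary tumors were above all other libraries, but the lungs spread over a wide range and the difference of 3.57 ± 1.10 missed the threshold (edgeR adjusted p = 0.065). Cilp, a matrix protein best known from cartilage and scarring heart, was at 155, 248 and 87.0 CPM in primary tumors, 10.4 and 0 CPM in metastases and 18.0, 11.9 and 18.7 CPM in lungs. Metastases lay below all lungs, and lungs below all primary tumors. Cilp rose by 3.41 ± 0.56 from lung to primary tumor (edgeR adjusted p = 0.0071) and was -4.41 ± 0.73 in metastasis against primary tumor (edgeR adjusted p = 0.028). With 2 metastases, the calls of Thbs4 and Cilp between metastasis and primary tumor did not pass the threshold when any library of those tissues was left out, at edgeR adjusted p of 0.059 to 0.10 for Thbs4 and 0.077 to 0.17 for Cilp, where leaving out a metastasis leaves 1 library whose spread is taken from the other tissues.

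Spp1 encodes osteopontin, a phosphoprotein that binds CD44 and αv integrins. In fibroblasts Spp1 was at 3553, 1247 and 3356 CPM in primary tumors, 1860 and 1019 CPM in metastases and 95.8, 13.9 and 38.4 CPM in unchallenged lungs. Both tumor-bearing tissues were above every lung, and they overlapped with each other. The rise against lung was 5.99 ± 0.80 in primary tumor (edgeR adjusted p = 0.0030) and 5.04 ± 0.79 in metastasis (edgeR adjusted p = 0.028). Without metastasis replicate 5 the latter was 4.47 (edgeR adjusted p = 0.17), and without replicate 6 it was 5.48 (edgeR adjusted p = 0.10). In both fits metastasis is 1 library, assumed to vary like those of the other tissues, and the difference stayed within 1 SE of its value with both. Primary tumor replicates 5 and 6 held only 3 and 1 macrophages, and their fibroblasts had summed macrophage markers of 105 and 144 CPM, against 1534 CPM in replicate 4. The part of RNA of macrophages or other cells in the fibroblast Spp1 levels was not tested.

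Sparc, a collagen-binding glycoprotein needed for matrix assembly, was at 6223, 4709 and 2830 CPM in primary tumor fibroblasts, 5699 and 2336 CPM in metastases and 1912, 2422 and 651 CPM in lungs. Its log2 difference between primary tumor and lung of 1.56 ± 0.61 did not pass (edgeR adjusted p = 0.13). Fn1 was at 3014, 4424 and 3214 CPM in primary tumors, 2879 and 6257 CPM in metastases and 901, 965 and 405 CPM in lungs. All tumor-bearing libraries were above all lungs. Fn1 rose by 2.33 ± 0.50 in primary tumor against lung (edgeR adjusted p = 0.018), while the larger difference of 2.61 ± 0.53 in metastasis missed the threshold (edgeR adjusted p = 0.056). The Fn1 call did not hold without primary tumor replicate 5 (edgeR adjusted p = 0.061) or 6 (edgeR adjusted p = 0.063), nor without the shallow libraries, where Fn1 was 2.09 (edgeR adjusted p = 0.11), nor in the third sequencing run alone, where it was 2.52 (edgeR adjusted p = 0.073), nor with libraries of at least 10 cells, where it was 2.18 (edgeR adjusted p = 0.071).

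The fibroblast counts were repeated without the 4 subclusters led by genes of other cells. Then 7 members were called between primary tumor and lung, 2 between metastasis and lung, and 2 between metastasis and primary tumor. The share of all genes called in that fit is not given, so a change in count is not read as a result about the members. Thbs4 was -5.77 (edgeR adjusted p = 0.0063) and Cilp -4.69 (edgeR adjusted p = 0.0075) in metastasis against primary tumor there. Without all host cells in which melanoma markers took over 0.1% of UMIs, 6 members were called between primary tumor and lung and 0 in both comparisons with metastasis. That limit removed most of the metastases, since 91.1% of metastasis fibroblasts were over it and replicate 5 kept 4 of its 442 cells. Only replicate 6, with 28 cells, was left for metastasis, and Spp1 there was 4.62 against lung (edgeR adjusted p = 0.14), close to its value over all cells. Thbs4 and Cilp had no UMI in that library, so no fold is given for them (edgeR adjusted p = 0.15 for both against primary tumor).

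**Figure D2:**
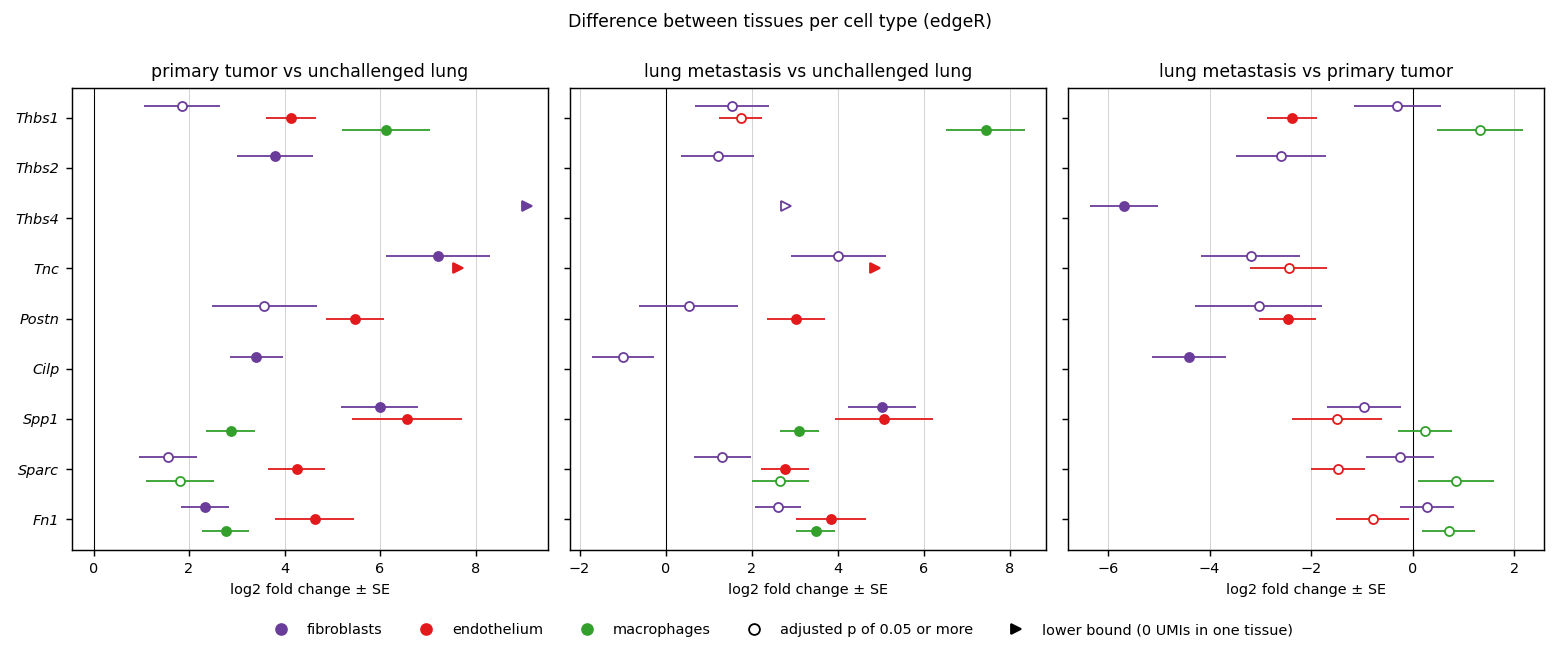
Log2 fold change ± SE of each member between tissues in fibroblasts, endothelium and macrophages, from edgeR. Filled points passed at an adjusted p below 0.05, open points did not, triangles are lower bounds where 1 tissue had 0 UMIs, and a missing point did not pass the filter on low counts. Cilp and Thbs4 in fibroblasts were at -4.41 and -5.69 in lung metastasis against primary tumor.

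Within fibroblasts the members were not spread evenly over the subclusters, whose cells come from the same libraries, so their pooled levels are a description. In the subclusters led by Egfros, Gm36988 and Slc20a1 (515 cells) and by Stc1, Igfbp3 and Igfbp5 (252 cells), of which 501 and 250 were from primary tumors, Spp1 was at 4514 and 5541 CPM, Thbs4 at 395 and 461 CPM and Tnc at 1063 and 454 CPM. Tnc is among the 10 leading genes of the first and Thbs4 among those of the second. The extracellular matrix fibroblast-like subcluster (102 cells, all from primary tumors) had the most Postn, Fn1, Cilp and Thbs2, at 1578, 6589, 346 and 610.3 CPM. The mural-like subcluster led by Rgs5, Higd1b and Trpc6 (139 cells) had the most Sparc and Thbs1, at 8726 and 668 CPM.

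The subcluster led by Gpm6a, Wt1 and Upk3b held 311 cells. Of these, 246 were from lung metastases, out of 515 metastasis fibroblasts, and 59 from unchallenged lungs, out of 2403. All 7 mesothelial markers were raised in the subcluster. So were all 6 genes by which the study marks fibroblasts of metastasis, a list chosen on these samples and so no independent evidence, and the subcluster is called here by its leading genes. Spp1, Sparc and Fn1 were high in it, at 2219, 4775 and 3797 CPM, whereas Thbs4, Tnc and Cilp were at 2.07, 25.6 and 0.691 CPM. The summed mesothelial markers of the fibroblast class were at 818 to 929.8 CPM in metastases, 168 to 237 CPM in lungs and 8.04 to 20.6 CPM in primary tumors. The part of these cells in the low Thbs4 and Cilp of metastases, and in their Spp1 and Fn1 against lung, was not tested. The adventitial fibroblast-like subcluster led by Clec3b, Pi16 and Scara5 (171 cells) had Cilp at 134 CPM and Sparc at 5027 CPM. Both alveolar fibroblast-like subclusters had Thbs4 at 0 CPM and Tnc, Postn and Cilp at 1.31 to 7.88 CPM.

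**Figure D3:**
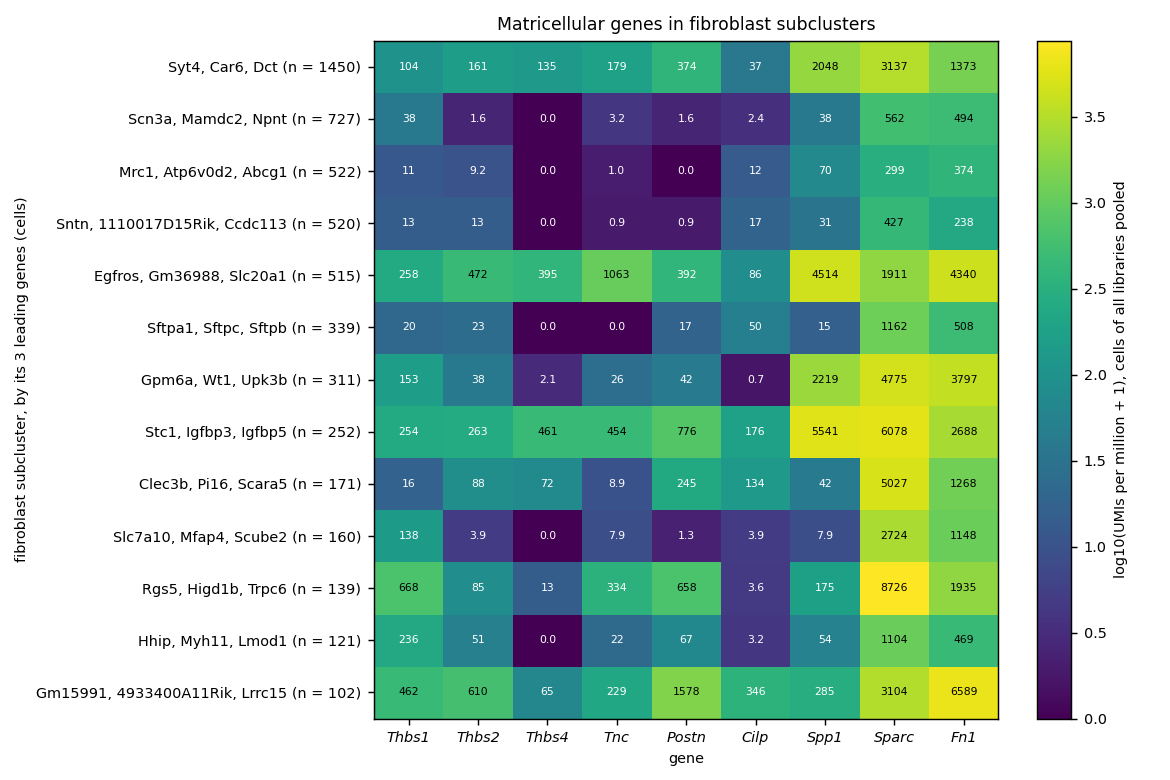
Level of each member (columns) in the 13 fibroblast subclusters (rows, named by their 3 leading genes with the number of cells), as CPM with the cells of all libraries pooled. Color is log10 of the level plus 1, and the printed number is the level. Spp1, Thbs4 and Tnc are high together in the rows led by Egfros and by Stc1, and Spp1 without Thbs4 in the row led by Gpm6a.

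In endothelium, 4 libraries of each tissue had at least 20 cells. Most endothelial cells of lungs and metastases fell in the clusters led by Npr3, Glp1r and Sema3g and by Rprml, Fibin and Lmntd1, whereas 537 of 546 primary tumor cells fell in the cluster led by Slc6a2, Cytl1 and Vwf, so the tissues are compared over different makeups. Of the members 6 passed the filter on low counts, which was passed through the tissue where they were high, and Thbs2, Thbs4 and Cilp did not. Between primary tumor and lung all 6 were called higher, against 14.0% of 9770 genes called higher and 13.8% called lower. Between metastasis and lung 5 were higher (2.70% of genes higher, 0.635% lower), and between metastasis and primary tumor 2 were lower (6.71% of genes higher, 4.87% lower). The median log2 fold changes of these members in the same order were 5.05, 3.43 and -1.93, and those of all genes -0.03, 0.01 and 0.06. Members that passed the filter only because they were high in tumors had to differ from lung, so these counts and medians describe the 6 members and are not read against the shares of all genes.

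Sparc in endothelium was at 3360, 6574, 5232 and 4499 CPM in primary tumors (libraries 1-3, 4, 5 and 6), 1217, 492, 3786 and 1678 CPM in metastases (same order) and 459, 328, 177 and 146 CPM in unchallenged lungs (replicates 1, 4, 5 and 6). Lungs lay below all other libraries. The rise was 4.25 ± 0.60 in primary tumor (edgeR adjusted p = 1.3e-04) and 2.78 ± 0.56 in metastasis (edgeR adjusted p = 0.013). Within the cluster led by Slc6a2, Cytl1 and Vwf, which held cells of every tissue, Sparc ranged over 102 to 328 CPM in 4 lungs, 2095 to 5692 CPM in 3 metastases and 3771 to 6574 CPM in primary tumors, again without overlap between lung and the others.

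Thbs1 in endothelium was at 308, 164, 205 and 323 CPM in primary tumors, 0, 22.8, 66.4 and 78.5 CPM in metastases and 8.04, 21.8, 14.6 and 15.4 CPM in lungs. Primary tumors stood above all other libraries, and metastases overlapped with lungs. Thbs1 rose by 4.13 ± 0.52 from lung to primary tumor (edgeR adjusted p = 5.1e-05) and was -2.37 ± 0.49 in metastasis against primary tumor (edgeR adjusted p = 0.0059). In the cluster led by Slc6a2, Cytl1 and Vwf alone the former was 2.99 (edgeR adjusted p = 2.9e-04) and the latter -1.32 (edgeR adjusted p = 0.20). The difference between metastasis and lung, 1.75 ± 0.50, did not pass (edgeR adjusted p = 0.076).

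Fn1 in endothelium was at 411, 262, 560.2 and 613 CPM in primary tumors, 169, 42.6, 451 and 404 CPM in metastases and 5.03, 3.59, 27.2 and 50.9 CPM in lungs. The metastasis of replicate 4 overlapped with the lungs. Fn1 rose by 4.63 ± 0.83 in primary tumor (edgeR adjusted p = 7.7e-04) and by 3.84 ± 0.81 in metastasis (edgeR adjusted p = 0.015), and within the cluster led by Slc6a2, Cytl1 and Vwf by 3.43 and 3.11 (edgeR adjusted p = 2.7e-04 and 0.0029). Spp1 was at 20.0, 112, 32.7 and 474 CPM in primary tumors, 26.3, 6.09, 47.3 and 157 CPM in metastases and 2.35, 0.143, 2.19 and 5.66 CPM in lungs. The lungs were again below all others, and primary tumor replicate 6 was the highest library. The Spp1 rise was 6.56 ± 1.15 in primary tumor (edgeR adjusted p = 6.2e-04) and 5.08 ± 1.15 in metastasis (edgeR adjusted p = 0.023).

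Postn and Tnc were low in endothelium. Postn was at 43.9, 16.5, 49.8 and 72.1 CPM in primary tumors, 5.27, 0 and 10.8 CPM in the metastases 1-3, 4 and 6, slightly above the last of these in replicate 5, and at most 1.68 CPM in lungs, with differences of 5.48 ± 0.61 for primary tumor against lung (edgeR adjusted p = 2.3e-05), 3.03 ± 0.68 for metastasis against lung (edgeR adjusted p = 0.022) and -2.46 ± 0.56 for metastasis against primary tumor (edgeR adjusted p = 0.010). The last of these did not pass without primary tumor replicate 6 (-2.14, edgeR adjusted p = 0.064), without the shallow libraries (-2.15, edgeR adjusted p = 0.068) or in the cluster led by Slc6a2, Cytl1 and Vwf alone (-1.87, edgeR adjusted p = 0.069). Tnc was at 20.0, 14.0, 19.9 and 85.7 CPM in primary tumors, 0, 0, 9.54 and 10.8 CPM in metastases and 0 CPM in all lungs. With 0 UMIs in lungs, Tnc passed the filter through tumor-bearing tissue, so its calls against lung are a description. The Tnc mean was at least 199-fold higher in primary tumor than the level 3 UMIs over the lungs allow, and at least 29.1-fold higher in metastasis. The first limit was at least 103-fold without primary tumor replicate 6, and at least 118-fold and 130.3-fold without lung replicate 4 and 5. The second was at least 18.2-fold without metastasis replicate 6, and at least 17.3-fold and 19.0-fold without lung replicate 4 and 5. Between metastasis and primary tumor, Tnc was -2.44 ± 0.76 (edgeR adjusted p = 0.059), and with the replicate number as a block, since most pairs shared a mouse by their names, the edgeR adjusted p was 0.033. The endothelial calls of metastasis against lung did not all hold when a single library was left out. Without metastasis replicate 5, 1 member was called, with Postn at 2.36, Spp1 at 5.22 and Fn1 at 3.43 (edgeR adjusted p = 0.34, 0.064 and 0.063) and Tnc at an edgeR adjusted p of 0.16. Postn and Spp1 also missed the threshold without metastasis replicate 6 (edgeR adjusted p = 0.063 and 0.094), without lung replicate 1 (edgeR adjusted p = 0.055 and 0.064) and without lung replicate 4 (edgeR adjusted p = 0.070 and 0.067). Without lung replicate 5, Spp1 and Sparc missed it (edgeR adjusted p = 0.078 and 0.052), and without the shallow libraries Postn and Sparc did (edgeR adjusted p = 0.069 and 0.062). In the cluster led by Slc6a2, Cytl1 and Vwf alone all 5 members were called, at edgeR adjusted p of 4.3e-05 for Sparc to 0.016 for Tnc. Without cells with melanoma RNA, which left 1 endothelial cell of metastasis replicate 5 and so dropped that library, 0 of the 5 were called, with Sparc at 2.27, Fn1 at 3.07, Spp1 at 4.29 and Postn at 2.22 (edgeR adjusted p = 0.051, 0.10, 0.12 and 0.52) and Tnc at an edgeR adjusted p of 0.64.

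Of the members not tested, Thbs4 in endothelium was at 32.0, 1.27, 21.3 and 34.1 CPM in primary tumors and at 0 CPM in every metastasis and lung. Thbs2 was at 2.54 to 37.9 CPM in primary tumors and at most 12.7 CPM elsewhere, and Cilp was at no more than 12.1 CPM in any library.

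The summed fibroblast markers in endothelium moved with the tissue too, at 747 to 2462 CPM in primary tumors, 89.6 to 1066 CPM in metastases and 55.4 to 532 CPM in lungs, with up to 6, 9 and 2 of the 11 markers at 0 in a library. The summed melanoma markers were at 232 to 1760, 493 to 7868 and 7.17 to 19.1 CPM. The platelet markers, summed, were at 15.2 to 68.7 CPM in primary tumors, 3.18 to 109.7 CPM in metastases and 1.34 to 3.23 CPM in lungs, with up to 4 of the 5 genes at 0 in each tissue. The markers of mural cells, which wrap vessels and whose subcluster among fibroblasts had the most Sparc and Thbs1, were at 55.9 to 178 CPM, 5.27 to 116 CPM and 13.8 to 57.0 CPM, with up to 5, 8 and 1 of the 9 genes at 0. Therefore each member's level in endothelium was set against its level in fibroblasts of the same library. In primary tumor replicate 6 the summed fibroblast markers in endothelium were at 12.4% of their level in fibroblasts. Tnc, Postn, Cilp, Thbs4, Thbs2 and Spp1 were at 13.3%, 14.6%, 14.0%, 12.8%, 9.80% and 14.1%, close to that share, and Fn1 at 19.1%. Thbs1 and Sparc, at 131% and 159%, were far above it. In primary tumor replicates 4 and 5 the markers were at 4.25% and 3.67%, Tnc at 3.57% and 2.59%, Postn at 2.25% and 5.16%, Spp1 at 3.15% and 2.62%, and Fn1 at 8.69% and 12.7%, whereas Thbs1 was at 55.3% and 43.6% and Sparc at 106% and 111%. In metastases 5 and 6 the markers were at 2.59% and 3.06%, with Sparc at 66.4% and 71.8%, Thbs1 at 58.5% and 16.3%, Postn at 11.4% and 13.8% and Tnc at 22.6% and 10.6%. Spp1 was at 2.55% and 15.4% there, Fn1 at 15.7% and 6.45% and Thbs2 at 32.2% and 3.77%. In primary tumors, the shares of Tnc, Postn and Spp1 were thus of the same order as that of the fibroblast markers, and those of Sparc and Thbs1 were far above it. The part of fibroblast, mural, platelet or melanoma RNA in the endothelial levels was not tested.

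**Figure D4:**
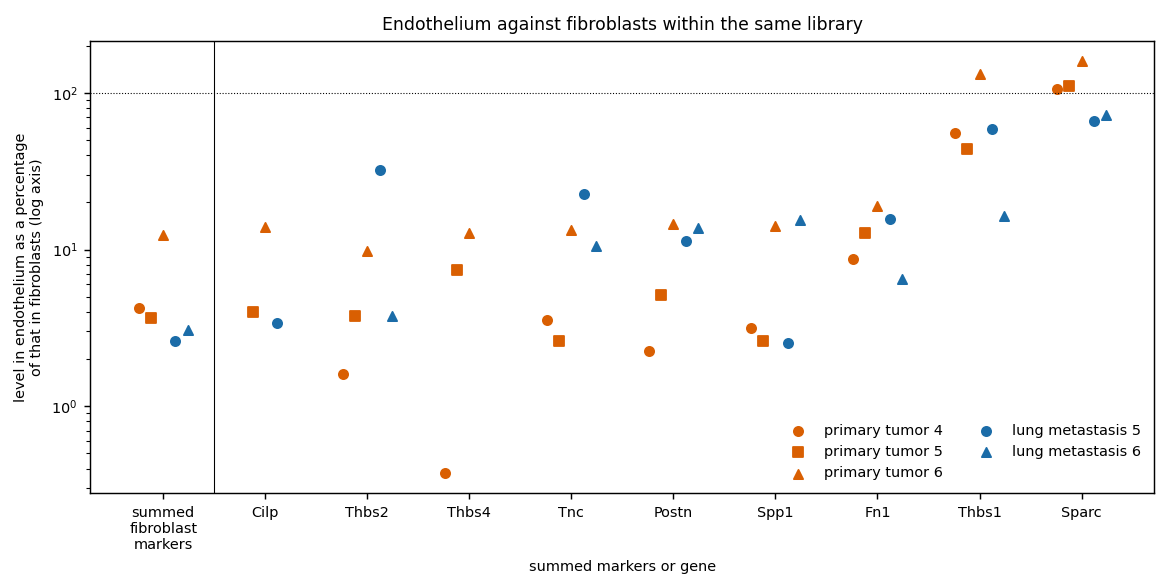
Level in endothelium as a percentage of the level in fibroblasts of the same library, on a log axis, for the summed fibroblast markers (left of the line) and each member. Each point is 1 library, values of 0 and ratios without UMIs in fibroblasts are not drawn, and the dotted line marks 100%. In primary tumors Sparc lay at 106% to 159%, against 3.67% to 12.4% for the summed markers.

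In macrophages, libraries with at least 20 cells were 4 of unchallenged lung, 4 of metastasis and 2 of primary tumor (1-3 and 4). Lung macrophages fell mostly in the alveolar cluster led by Ear1, Marco and Chil3, and those of tumors and metastases mostly in the cluster led by C1qb, C1qc and C1qa. Thbs1, Spp1, Sparc and Fn1 passed the filter. Thbs2, Thbs4, Tnc, Postn and Cilp did not, and their highest library level was 14.2 CPM. Thbs1, Spp1 and Fn1, 3 of these 4 members, were called higher than in lung both in primary tumor (6.24% of 11186 genes higher, 9.72% lower) and in metastasis (1.48% higher, 0.340% lower). Between metastasis and primary tumor, 0 of the 4 were called (0.608% of genes higher, 0.0983% lower), 0 had an unadjusted p below 0.05 and DESeq2 called 0. The 4 members' median log2 fold changes were 2.82, 3.30 and 0.78 in that order of comparisons, against -0.03, -0.06 and -0.00 over all genes, and are a description for the same reason as in endothelium.

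Thbs1 in macrophages was at 466 and 144 CPM in primary tumors, 343, 694, 151 and 2111 CPM in metastases (1-3, 4, 5 and 6) and 0.679, 8.94, 4.40 and 6.34 CPM in lungs (1, 4, 5 and 6). No tumor-bearing library overlapped with lung. The rise was 6.12 ± 0.92 in primary tumor (edgeR adjusted p = 0.0010) and 7.44 ± 0.91 in metastasis (edgeR adjusted p = 0.0012). Within the cluster led by C1qb alone, Thbs1 was at 3.01 to 13.7 CPM in lungs, 177 to 2417 CPM in metastases and 144 to 466 CPM in primary tumors. Platelets store Thbs1, and the summed level of the platelet markers Pf4, Ppbp, Gp9, Itga2b and Gp1bb in macrophages was 35.4 to 339.6 CPM in lungs, 341 to 1008 CPM in metastases and 921 to 1085 CPM in primary tumors, with up to 4, 4 and 2 of the 5 genes at 0. Pf4 is among the leading genes of the C1q cluster itself. The platelet sum was thus above that of every lung in every tumor-bearing library, as Thbs1 was. Within metastases it was 771, 1008, 756 and 341 CPM (1-3, 4, 5 and 6). The part of platelet RNA in the Thbs1 levels was not tested.

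Fn1 in macrophages was at 1319 and 1044 CPM in primary tumors, 1453, 822, 2142 and 3927 CPM in metastases and 218, 119, 178 and 261 CPM in lungs. It rose by 2.77 ± 0.49 in primary tumor (edgeR adjusted p = 0.0026) and by 3.49 ± 0.46 in metastasis (edgeR adjusted p = 0.0018). Spp1 was at 1057 and 1035 CPM in primary tumors, 1430, 1799, 374 and 1801 CPM in metastases and 259, 106, 135 and 134 CPM in lungs, with rises of 2.87 ± 0.51 (edgeR adjusted p = 0.0024) and 3.11 ± 0.46 (edgeR adjusted p = 0.0040). For Fn1 and Spp1 every tumor-bearing library was above every lung. The summed melanoma markers in macrophages moved with the tissue as well, at 346 to 466 CPM in primary tumors, 285 to 3414 CPM in metastases and 40.6 to 65.9 CPM in lungs, with up to 0, 2 and 9 of the 11 genes at 0. Without cells with melanoma RNA, which dropped metastasis replicate 5, Thbs1, Spp1 and Fn1 were again called against lung in both tissues, 3 members in metastasis and 4 in primary tumor. Sparc was low in macrophages, at 56.6 and 71.8 CPM in primary tumors, 24.6 to 340.4 CPM in metastases and 6.11 to 29.7 CPM in lungs, and did not pass (edgeR adjusted p = 0.10 and 0.064). Without the alveolar clusters 4 members were called in both comparisons with lung.

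Sorted melanoma cells, which unchallenged lungs lack, were compared in 2 metastases and 2 primary tumors (replicates 4 and 5). Of the members 7 passed the filter and 0 were called (1 of 14307 genes, 0.00699%, was called), 0 had an unadjusted edgeR p below 0.05, and DESeq2 called 0. Sparc was at 2059 and 1952 CPM in metastases and 1603 and 2155 CPM in primary tumors, and Fn1 at 1564 and 793 CPM and 1223 and 1659 CPM. Their differences, 0.07 ± 0.44 for Sparc and -0.30 ± 0.46 for Fn1, were within their errors. Thbs2 was at 27.5 and 37.2 CPM in metastases and 35.6 and 75.9 CPM in primary tumors. Spp1 split by replicate and not by tissue, at 211 and 169 CPM in the replicates 4 and 21.6 and 18.1 CPM in the replicates 5 of metastasis and primary tumor. By their names the replicates 4 were in sequencing run 2 and the replicates 5 in run 3, so replicate and run cannot be told apart. Thbs1 was at 5.24 to 11.1 CPM, Postn at 1.23 to 4.12 CPM and Tnc at 0.599 to 1.16 CPM, while Thbs4 and Cilp were at no more than 0.140 CPM. Melanoma cells thus held Sparc and Fn1 RNA, and little or none of Thbs4, Cilp, Tnc or Postn.

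Whether a tissue difference was larger in fibroblasts than in another class was tested by the interaction of class and tissue, inside libraries that held both classes. Against endothelium, 1 member was called for primary tumor against lung (8.47% of 12326 genes called in either direction). It was Sparc, whose rise was smaller in fibroblasts by 3.16 ± 0.49 log2 units, at -3.16 (edgeR adjusted p = 0.0019). For metastasis against lung 0 were called (1.01% of genes), 4 had an unadjusted p below 0.05 and DESeq2 called 1, and Sparc was at -2.33 ± 0.54 (edgeR adjusted p = 0.080). Against macrophages, only primary tumor replicate 4 held at least 20 cells of both classes, so that side rests on 1 library that is assumed to vary like those of the other tissues, and a count of 0 there does not show that the classes moved alike. Metastasis rests on replicates 5 and 6. There 0 members were called for metastasis against lung (0.00768% of 13016 genes) and 0 for primary tumor against lung (0.0230%), each with 1 member at an unadjusted p below 0.05 and with 1 and 0 called by DESeq2. Shares of all genes are not given for the unadjusted and DESeq2 counts of these tests either. The Thbs1 difference for metastasis, -4.67 ± 0.98, did not pass (edgeR adjusted p = 0.44), so a larger rise of Thbs1 in macrophages than in fibroblasts was not shown.

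The order of the 4 classes differed by gene. UMIs here count 3′ ends, so levels were not divided by transcript length. In primary tumors the mean Sparc level was 4916 ± 1347 CPM (SD, n = 4) in endothelium and 4587 ± 1700 CPM (SD, n = 3) in fibroblasts. It was 1879 ± 390.3 CPM (SD, n = 2) in melanoma cells and 64.2 ± 10.7 CPM (SD, n = 2) in macrophages. The means of the classes are over different libraries. In replicates 4, 5 and 6, which held both classes, endothelial Sparc was at 106%, 111% and 159% of fibroblast Sparc, a difference that was not tested. Fn1 followed another order, with fibroblasts at 3551 ± 763 CPM (SD, n = 3), melanoma cells at 1441 ± 308 CPM (SD, n = 2) and macrophages at 1182 ± 195 CPM (SD, n = 2), which do not differ beyond their spread, and endothelium at 462 ± 158 CPM (SD, n = 4). Thbs1 was within its spread in fibroblasts (338 ± 117 CPM, SD, n = 3), macrophages (305 ± 228 CPM, SD, n = 2) and endothelium (249.9 ± 77.7 CPM, SD, n = 4), and was low in melanoma cells (8.55 ± 3.65 CPM, SD, n = 2). Tnc, Postn, Thbs4, Thbs2 and Cilp were highest in fibroblasts.

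The share of cells with at least 1 UMI was taken after thinning every cell to 1000 UMIs, with shallower cells left out. Thbs4 was found in 23.4%, 17.9% and 15.6% of fibroblasts of primary tumor replicates 4, 5 and 6, against 0.509% of the macrophages of replicate 4, where the median depth before thinning was 4410 UMIs in fibroblasts and 4998 UMIs in macrophages. Without thinning, the Thbs4 shares in replicate 4 were 43.2% and 1.99%. Of the fibroblasts of metastasis replicate 5, 0.235% had a Thbs4 UMI, and 0 of 52 in replicate 6. For Tnc these shares were 26.6%, 29.1% and 23.4% in primary tumors, 2.82% and 7.69% in metastases and 0.463% in the macrophages of primary tumor replicate 4. Spp1 was in 79.7% of fibroblasts of primary tumor replicate 6 and in 46.2% of its endothelium, against 40.6% and 5.83% in replicate 4. In replicate 6 no named class that should lack Spp1 had at least 20 cells, and its unnamed cells had a Spp1 UMI in 37.0%, so the endothelial share there has no background to be read against and is not read as expression. Lymphocytes, taken as the level of free RNA, had a Spp1 UMI in 0 to 6.97% of cells in unchallenged lungs, and whether they make Spp1 themselves was not tested. In unchallenged lung replicate 6, Spp1 was in 3.51% of fibroblasts and 6.97% of lymphocytes, so the fibroblast share was not above that of lymphocytes. In replicates 4 and 5 Spp1 was found in 2 fibroblasts each. The part of free RNA in these shares was not tested.

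Over 87 sums of a library and a cell class, the genes most like each member in level were taken by Pearson's r of log2(CPM + 1) among 7333 genes with a mean of at least 20 CPM. The sums share libraries, so r is a description. Tnc and Postn were most like each other (r = 0.88), and Thbs4 was most like Tnc (r = 0.82) and then Ccl11 and Lum (both 0.75). Cilp was most like Ccl11 (0.91), Lum (0.88) and Aspn (0.86), and Thbs2 most like Dclk1 (0.87) and Loxl2 (0.85). Sparc was most like Sparcl1 (0.94), Serpinh1 (0.93) and Mmp2 (0.92). Spp1 was most like Igf1 (0.73), Lhfpl2 (0.71) and Cxcl14 (0.68), and Fn1 like Fmn1 (0.83), Ctsb and C4b (both 0.78). Thbs1 had the lowest likeness to any gene, with Ndrg1 (0.66), Slc2a1 (0.60) and Pdpn (0.59), and its r with the other members was at most 0.49.

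Of 26 related matricellular genes, 20 were tested in fibroblasts. Between primary tumor and lung, 2 rose and 3 fell (5.39% of all genes higher, 6.92% lower): Ccn4, a CCN family protein, by 3.23 ± 0.53 (edgeR adjusted p = 0.0070) and Matn2 by 1.78 ± 0.43 (edgeR adjusted p = 0.027), while Spock2 (-4.98 ± 0.50), Smoc1 (-8.00 ± 1.31) and Fbln1 (-2.74 ± 0.70) were lower, at edgeR adjusted p of 0.0016, 0.011 and 0.033. The median of the 20 was 0.16 and that of the 9 members 3.57, and the difference between the lists was not tested. Ccn4 also rose in metastasis against lung, by 3.62 ± 0.57 (edgeR adjusted p = 0.028), as 1 of 20, and 0 fell (0.908% and 0.153% of all genes). Between metastasis and primary tumor 0 of the 20 were called in either direction. In endothelium 7 of 9 related genes tested rose from lung to primary tumor and 0 fell (14.0% and 13.8% of all genes), among them Fbln2 (5.34 ± 0.68, edgeR adjusted p = 5.4e-05), Sparcl1 (3.45 ± 0.47, edgeR adjusted p = 9.6e-05) and Fbln5 (3.25 ± 0.33, edgeR adjusted p = 1.2e-05). Against primary tumor 3 fell in metastasis endothelium (4.87% of all genes), Fbln2, Fbln5 and Igfbp7, and against lung, where 2.70% of all genes rose, 1 rose, Sparcl1 (3.67 ± 0.48, edgeR adjusted p = 9.4e-04). In macrophages Tgfbi and Ecm1 rose against lung in both tissues, by 1.72 ± 0.24 and 2.24 ± 0.46 in primary tumor (edgeR adjusted p = 7.1e-04 and 0.0056) and by 1.26 ± 0.21 and 2.43 ± 0.42 in metastasis (edgeR adjusted p = 0.0077 and 0.0096), among 8 related genes tested. In primary tumor macrophages Sparcl1 rose too and Matn2 fell, against 6.24% of all genes higher and 9.72% lower there, and 1.48% higher and 0.340% lower in metastasis.

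Of 23 receptors for these proteins, 22 were tested in fibroblasts, and between primary tumor and lung 4 rose and 4 fell (5.39% and 6.92% of all genes). The integrin subunit Itga5, which with the β1 subunit forms the main fibronectin receptor, rose by 3.00 ± 0.38 (edgeR adjusted p = 0.0025), Itgb3 by 2.68 ± 0.43 (edgeR adjusted p = 0.0061), the syndecan Sdc1 by 2.93 ± 0.43 (edgeR adjusted p = 0.0042) and Egfr by 1.61 ± 0.41 (edgeR adjusted p = 0.033). The thrombospondin receptors Cd36 and Cd47 were lower, at -4.48 ± 1.09 and -1.53 ± 0.29 (edgeR adjusted p = 0.027 and 0.012), as were Itga8 at -5.18 ± 0.86 (edgeR adjusted p = 0.0071) and Sdc4 at -1.67 ± 0.32 (edgeR adjusted p = 0.012). Sdc4, a tenascin C and fibronectin coreceptor, was higher in metastasis than in primary tumor by 2.19 ± 0.35 (edgeR adjusted p = 0.025), the only receptor called there (0.908% of all genes higher, 0.207% lower), and against lung 0 of 22 were called in metastasis.

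In endothelium 6 of 17 receptors tested rose and 7 fell from lung to primary tumor, against 14.0% of all genes higher and 13.8% lower. Itgb3 (3.49 ± 0.48, edgeR adjusted p = 1.0e-04), Sdc1 (3.57 ± 0.66, edgeR adjusted p = 0.0010) and Itga9 (2.35 ± 0.31, edgeR adjusted p = 7.1e-05) rose the most, and Cd36 (-3.47 ± 0.57, edgeR adjusted p = 4.2e-04), through which thrombospondin 1 acts on capillaries, and Itgb5 (-2.32 ± 0.40, edgeR adjusted p = 6.1e-04) fell the most. Between metastasis and primary tumor Cd36 was higher by 2.27 ± 0.55 (edgeR adjusted p = 0.014), 1 of 3 that rose, and 4 fell (6.71% and 4.87% of all genes). Against lung, 1 receptor rose in metastasis, Itgb3 (2.92 ± 0.48, edgeR adjusted p = 0.0032), where 2.70% of all genes rose and 0.635% fell. In macrophages 3 of 18 receptors rose and 2 fell in primary tumor against lung (6.24% and 9.72% of all genes), with Sdc4 up by 2.63 ± 0.38 (edgeR adjusted p = 8.3e-04) and Cd36 at -2.22 ± 0.49 (edgeR adjusted p = 0.0084). In metastasis against lung 2 of 18 rose and 0 fell (1.48% and 0.340% of all genes), Sdc4 by 2.11 ± 0.36 and Stab1 by 1.84 ± 0.41 (edgeR adjusted p = 0.0078 and 0.038). Of the 10 dissociation and stress genes, Dusp1 alone was called in fibroblasts, lower than in lung in both tissues, at -2.82 ± 0.47 in primary tumor (edgeR adjusted p = 0.0073) and -2.90 ± 0.56 in metastasis (edgeR adjusted p = 0.049). In endothelium Jun and Dusp1 were lower in primary tumor than in lung, at -2.45 ± 0.26 and -0.77 ± 0.19 (edgeR adjusted p = 1.4e-05 and 0.0080), Dusp1 was lower in metastasis than in lung, at -1.30 ± 0.20 (edgeR adjusted p = 0.0019), and Jun was higher in metastasis than in primary tumor by 2.08 ± 0.25 (edgeR adjusted p = 1.9e-04). The summed stress genes in endothelium lay at 797 to 967 CPM in primary tumors, 1180 to 1982 CPM in metastases and 1725 to 2495 CPM in lungs, so primary tumors did not overlap with the other tissues, as for Thbs1. In fibroblasts the sum was at 1571 to 1816 CPM in primary tumors and 2481 to 4602 CPM in lungs, again without overlap, and at 1139 to 2689 CPM in metastases. In macrophages Atf3 was higher in primary tumor than in lung by 2.11 ± 0.51 (edgeR adjusted p = 0.014). The part of dissociation stress in the members' levels was not tested.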

How the data were processed

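The authors sequenced single-cell libraries (10x 3′ v3.1) of dissociated, cryopreserved and sorted cells and processed them with Cell Ranger 6.1.1 on GRCm38 and Seurat 3.2.2, with cells outside quality quantiles removed. The deposited table holds raw UMI counts per gene and cell, and these counts were used here; the deposited normalised values were not used. Libraries with identical counts were counted once. Cells were clustered with Seurat 5.3.0 (2000 variable genes less the members, 17 principal components, resolution 0.5) and classes named from standard markers. No doublet caller was run. UMIs were summed per library and class with at least 20 cells and tested with edgeR 4.0.16 (quasi-likelihood, TMM, filterByExpr, Benjamini-Hochberg adjustment, threshold 0.05), with DESeq2 1.42.0 as an alternative. The edgeR fits were also run on simulated counts with known changes in metastasis. Against primary tumor, 31.0% of 4-fold changes were recovered in fibroblasts, 63.0% in macrophages, 65.0% in melanoma cells and 85.0% in endothelium. For 16-fold changes these were 82.0%, 92.0%, 91.0% and 95.0%, so a real difference can go uncalled. Libraries are the replicates, and p-values measure the spread between them. The members and lists were chosen with earlier results of these data known. Named were the 9 members, of the related and receptor genes at most 5 called per direction and comparison, and for each member the 3 genes most like it, of which 1 is not reported here. Lung metastasis and primary tumor replicates with the numbers 5 and 6, and part of those in 1-3, came from the same mice by their library names, so the replicate number was taken to pair them; the correlation of their deviations was -0.11 and -0.06 in fibroblasts for the numbers 5 and 6, and 0.14, 0.16 and 0.17 in endothelium for 1-3, 5 and 6. Intervals and floors of 3 counts cover counting error only. Depth ranged from 1777036 to 60339415 UMIs per library.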

Additional observations from a re-analysis of the deposited data

Results flagged for a closer look

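Tnc in endothelium of primary tumors was highest in replicate 6, at 85.7 CPM against 14.0 to 20.0 CPM in the other libraries, and that gap took 0.917 of the whole range. The summed fibroblast markers in the endothelium of that library were at 12.4% of their level in its fibroblasts, and their part in the gap was not tested. Postn in macrophages of unchallenged lungs was found in replicate 6 alone, at 0.830 CPM, so the gap took the whole range (1.000). That library held 11 Postn UMIs among 13252501, and 3 UMIs in the other lungs would come to 1.47 to 4.47 CPM, so a level of 0.830 CPM was not detectable at their depth. Of 30 groups of 4 libraries examined, 2 had such a library, and chance gives about 1 in 20.

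The rise of Sparc from unchallenged lung to primary tumor differed between fibroblasts and endothelium, at -3.16 ± 0.49 log2 units for fibroblasts against endothelium (edgeR adjusted p = 0.0019). Without the fibroblast subclusters led by genes of other cells the difference was -3.35 (edgeR adjusted p = 5.5e-04).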

How the results depend on the processing

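The 9 members made 29 calls, each a member in a comparison. Among them, Thbs4 in primary tumor fibroblasts and Tnc in endothelium were called against lungs without a UMI, and these calls are a description. Over 589 alternatives to these calls, 543 kept direction and call, 46 kept the direction and lost the call, and 0 reversed, and 12 of the 29 calls were lost at least once. The share of all genes called is not given for the alternatives, nor that at an unadjusted p below 0.05, here or above. A change in the count of members between settings is therefore not read as a result about them. Without a filter on low counts, the members called were 4 in fibroblasts for metastasis against primary tumor and 4 against lung, 4 in endothelium for metastasis against primary tumor, 8 in macrophages for primary tumor against lung, 2 and 1 for fibroblasts against macrophages (metastasis and primary tumor) and 5 and 6 for fibroblasts against endothelium. With DESeq2 they were 3 in fibroblasts for metastasis against lung, and 1 each for fibroblasts against macrophages and against endothelium in metastasis. Without cells with melanoma RNA, they were 0 in both fibroblast comparisons with metastasis, 4 in endothelium for metastasis against primary tumor and 0 against lung, where the metastasis of replicate 5 kept 1 of 1179 endothelial cells. Another setting took each deposited name as a library, which repeats libraries and splits those named 1-3. There the members called were 5 and 4 in fibroblasts, 5 in endothelium for metastasis against primary tumor, and 2 and 2 for fibroblasts against endothelium. With at least 10 cells, 0 were called in fibroblasts for metastasis against lung. Further alternatives, the lower limits of folds without a library among them, were chosen after seeing the data. Without subclusters led by other cells' genes, 2 were called in fibroblasts for metastasis against lung and 1 for fibroblasts against endothelium in metastasis. In the third sequencing run alone, these were 2 in fibroblasts for metastasis against lung and 5 in endothelium for metastasis against primary tumor, where the cluster with Vwf alone gave 1, which was neither Thbs1 nor Postn. Without the shallow libraries, endothelium had 1 for metastasis against primary tumor and 3 against lung.

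Leaving out 1 library gave 0 to 3 members in fibroblasts for metastasis against primary tumor, 0 to 2 for metastasis against lung and 4 to 8 for primary tumor against lung. In endothelium the same comparisons gave 1 to 4, 1 to 7 and 6 to 8, and in macrophages 0 to 0, 3 to 4 and 3 to 4. Melanoma cells gave 0 to 1. Fibroblasts against macrophages gave 0 to 3 in metastasis and 0 to 2 in primary tumor, and against endothelium 0 to 3 and 1 to 3. The interaction for primary tumor against macrophages could not be estimated without primary tumor replicate 4.

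With the replicate block, members called were 2, 1 and 7 in fibroblasts, 3, 5 and 6 in endothelium, 0, 4 and 4 in macrophages and 0 in melanoma cells. Unchallenged lungs share only a number with the tumors. There the block called Postn in fibroblasts of primary tumor (edgeR adjusted p = 0.014) and Sparc in macrophages of metastasis (edgeR adjusted p = 0.0062) and primary tumor (edgeR adjusted p = 0.0018). The interaction fits hold the library as a term, so no block was added. Of 162 alternative shares of cells with a UMI, 83 moved by less than 1 SD and 79 by more, 57 of them without thinning. DESeq2 scaling shifted the median of all genes by up to 0.12.

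Metastasis fibroblasts rest on 2 libraries, 1 of them with 56 cells, and primary tumor macrophages on 2 libraries.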

Other observations

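Thbs1 was also found in neutrophils and monocytes, which belong to no comparison above. In neutrophils of libraries with at least 20 of them, Thbs1 was at 584 and 907 CPM in primary tumors (1-3 and 4), at 247, 0 and 233 CPM in lung metastases (1-3, 5 and 6) and at 64.4, 49.2, 35.0 and 62.1 CPM in unchallenged lungs (1, 4, 5 and 6). Both primary tumors were above every other library, and the metastasis of replicate 5, with 41 neutrophils, had no Thbs1 UMI. In monocytes Thbs1 was at 121 and 141 CPM in primary tumors (1-3 and 4), at 103, 0, 10.7 and 23.3 CPM in metastases and at 8.76 to 13.8 CPM in lungs. These differences were not tested.

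A cluster of 1874 cells led by Bche, Wnt4 and Cspg4, left unnamed because it had 3 of 11 melanoma markers raised and other leading genes, occurred in tumors and metastases and not in unchallenged lungs. Fn1 there was at 2021 and 5362 CPM in the host cell libraries of metastases 5 and 6, and at 3095, 3918 and 2143 CPM in those of primary tumors 4, 5 and 6. Sparc was at 2795 and 1336 CPM in these metastases and at 2073, 3172 and 1716 CPM in these primary tumors.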
